A study of Mus musculus with 6 samples.

Results

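The BCL2 family of apoptosis regulators was examined on 6 single-colour Affymetrix arrays of mouse bone marrow-derived macrophages. The members were 10 listed genes, 3 that favour survival (Bcl2, Bcl2l1 and Mcl1) and 7 that favour death (Bax, Bak1, Bcl2l11, Bid, Bbc3, Pmaip1 and Bmf). Each was looked up by the Entrez gene number in its probe set name through the platform annotation. This found 9 of the 10, among 25206 probe sets of which 23185 carried a gene symbol. The probe set of Bax, a pore-forming effector, is not named in the annotation used here, so Bax was not analysed here. The death members are therefore the other 6.

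The control group was 3 samples of macrophages labelled as treated with none. The other group was 3 samples kept for 16 hours with 0.3 micromole of JG-98, a small molecule that blocks the chaperone Hsp70. No volume for that amount and no vehicle are named, and the labels give no strain, sex or age of the mice. The study asks how this inhibitor alters gene expression in macrophages. All values are the authors' deposited log2 expression values, so a difference of 1 is a doubling.

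Proteins of this family decide whether the outer membrane of the mitochondrion is breached, the step that commits a cell to apoptosis by releasing cytochrome c. Bcl2, Bcl2l1 (Bcl-xL) and Mcl1 hold the effectors Bax and Bak1 in check. The BH3-only proteins, such as Bcl2l11 (Bim), Bid, Bbc3 (Puma), Pmaip1 (Noxa) and Bmf, report stress by binding the survival proteins or, for some, the effectors directly. Several are controlled at the protein level, which arrays do not measure. Mcl1 in particular is a short-lived protein, and Bid acts after it is cut by caspase 8.

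The 6 arrays had median values between 4.08 and 4.24. Correlations across probe sets were 0.992 to 0.994 for JG-98 replicate 3, which stood slightly apart, and 0.995 to 0.996 among the remaining 5. Macrophage markers, of which 9 of 10 were measured, were present at high levels. Csf1r, the growth factor receptor of the lineage, averaged 11.2 in the controls and Adgre1 (F4/80) 10.8. The mean of the 9 markers was 10.19 to 10.24 on the control arrays and 10.11 to 10.16 on the JG-98 arrays. Of the 9, 7 were lower with JG-98, where 49.7% of all probe sets were. For 3 of them the JG-98 values lay wholly below the controls, where 8.44% of all probe sets did. These were the complement gene C1qa at -0.24, the phagocytic receptor gene Mertk at -0.22 and Csf1r at -0.088. Cd68 at 0.061 lay wholly above its controls, where 7.12% of all probe sets did so. None of the 9 passed after adjustment (limma adjusted p = 0.42 for C1qa and 0.48 for Mertk). The part of these marker differences in the members' differences was not tested. Means of neutrophil, lymphocyte, dendritic cell, stromal, and mast cell and erythroid markers lay between 1.32 and 3.91 on every array. In all 5 of those lists the control and JG-98 ranges overlapped. In such bulk samples, fewer cells of a type and less RNA per cell cannot be told apart.

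Of the 9 members measured, Bcl2 was the most different between the groups and was higher with JG-98, while Bmf and Mcl1 were lower. The other 6 differed by less than 0.1 on the log2 scale. The differences were tested with limma, a linear model whose variance estimates borrow from all probe sets, and p-values were adjusted by the Benjamini-Hochberg method over all 25206. At an adjusted p under 0.05, 0 of 9 members passed, where 0.0397% of all probe sets did. At an unadjusted p under 0.05 there were 2 of 9, Bcl2 and Bmf, where 8.32% of all probe sets passed. The 3 JG-98 values lay wholly above the 3 control values for 1 member, where 7.12% of probe sets did so. They lay wholly below for 2 members, where 8.44% did. These counts of few members were not themselves tested. The median difference over the 9 was 0.0088, against 8.0e-04 over all probe sets.

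**Figure D1:**
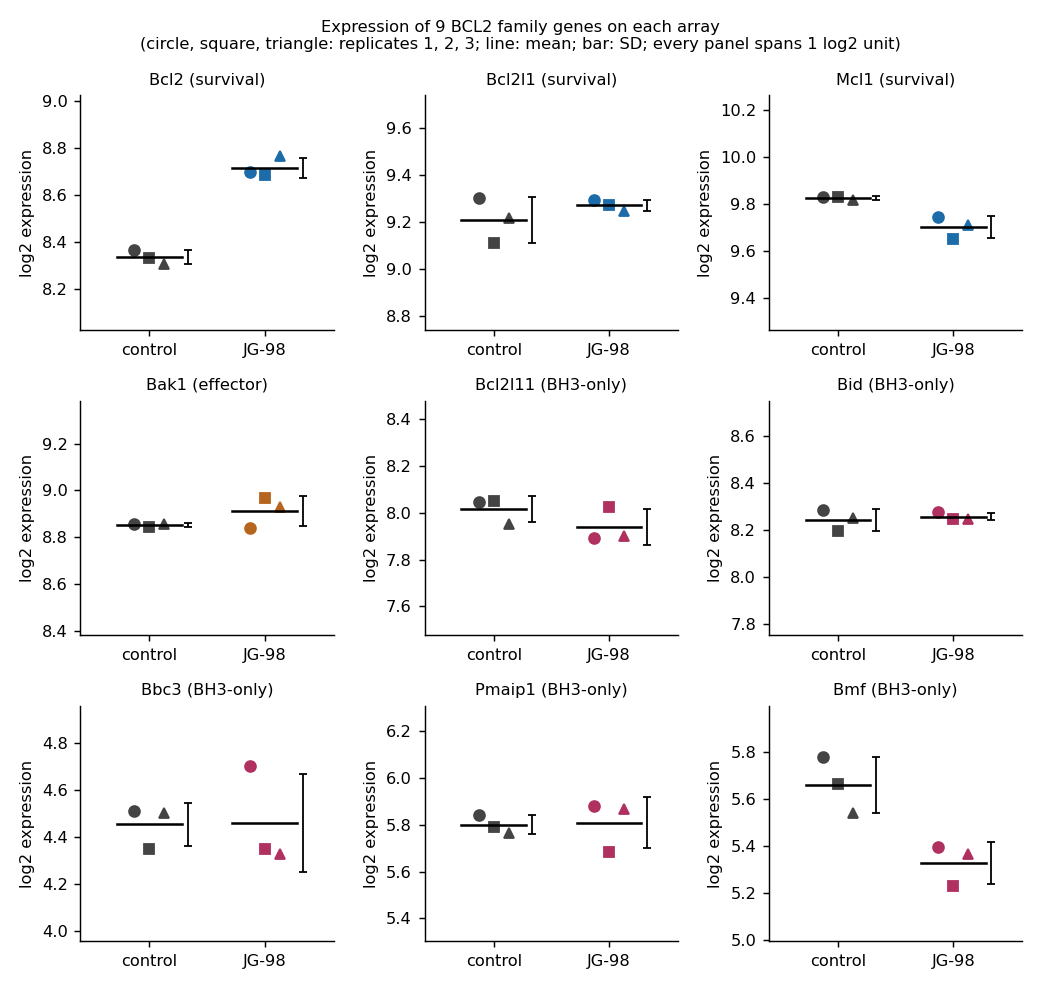
log2 expression (y axis, every panel spanning 1 log2 unit) of the 9 measured BCL2 family genes on the 3 control and 3 JG-98 arrays, with the mean as a line and the SD as a bar. The JG-98 values of Bcl2 (8.69 to 8.77) lie above its control values, those of Mcl1 and Bmf lie below theirs, and the groups of the other 6 genes overlap.

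Among the survival genes, Bcl2, which guards the mitochondrial and endoplasmic reticulum membranes, was at 8.37, 8.33 and 8.31 in the controls. With JG-98 it was at 8.70, 8.69 and 8.77. The lowest JG-98 array thus lay clearly above the highest control, and the spread within either group was small, at an SD of 0.030 and 0.043. The difference was 0.38 ± 0.063 (SE, n = 3 per group), or 1.30-fold, with a 95% interval of 0.23 to 0.53. It ranked 73 among all probe sets by p, yet missed the threshold after adjustment (limma adjusted p = 0.22, unadjusted p = 6.3e-04). A larger difference in either direction was seen for 2.29% of all probe sets.

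Whether Bcl2 passes depended on the setting. With an intensity trend in the variance prior, limma called Bcl2 (adjusted p = 0.0053), and it did so when probe sets under the 50th percentile of mean level were left out (adjusted p = 0.039). The other settings, array weights and a robust prior among them, gave adjusted p-values between 0.092 and 0.73. The size itself was stable, from 0.36 without JG-98 replicate 3 to 0.40 without control replicate 1. Bcl2 is also abundant in lymphocytes. The mean level of the 7 measured lymphocyte markers of 8 was 3.02 to 3.11 in the controls and 2.93 to 3.32 with JG-98. Of these 7, 3 were higher with JG-98 and 4 lower, with a median of -0.012. Ms4a1 (CD20) at 0.28 was the sole gene whose groups did not overlap, where 7.12% of all probe sets lay wholly above. Its values were 1.66 to 1.76 in the controls and 1.93 to 2.02 with JG-98. These lie far below the array medians, where signal is hard to tell from background. The part of lymphocytes in the Bcl2 difference was not tested.

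Mcl1, the survival protein with the fastest turnover, was at 9.83, 9.83 and 9.81 in the controls. Under JG-98 its values were 9.74, 9.65 and 9.71. All 3 treated arrays lay below all controls, which were nearly identical to each other. The difference was small, at -0.13 ± 0.062 (SE, n = 3 per group; 95% interval -0.27 to 0.023), and did not pass (limma adjusted p = 0.67). Its unadjusted p was 0.085, and 0.0058 with an intensity trend, where the limma adjusted p was 0.18. The unadjusted p was under 0.05 in 2 of the 14 other settings, and Mcl1 passed after adjustment in none. Its difference thus had the opposite sign to that of Bcl2.

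Bcl2l1, which encodes Bcl-xL and its short, death-favouring splice form, is covered by a single probe set that does not tell the forms apart. Its control values of 9.30, 9.11 and 9.22 spanned the JG-98 values of 9.30, 9.27 and 9.25. The groups overlapped completely, and the wider scatter was in the controls. The difference was 0.062 ± 0.073 (SE, n = 3 per group), with a 95% interval of -0.11 to 0.24 (limma adjusted p = 0.88). Leaving out control replicate 2 gave 0.011, and leaving out control replicate 1 gave 0.11.

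The promoters of Bcl2 and Mcl1, the survival genes whose groups did not overlap, are shown as the 250 bases before the RefSeq start (assembly GRCm38.p6), read 5′ to 3′ on the gene's strand. Capitals mark GC boxes, the letters GGGCGG or their complement, which Sp1-type factors bind. The Bcl2 window lies at chr1:106714291-106714540 on the minus strand and holds 7 of them. The Mcl1 window lies at chr3:95658471-95658720 on the plus strand and holds 1.
Bcl2: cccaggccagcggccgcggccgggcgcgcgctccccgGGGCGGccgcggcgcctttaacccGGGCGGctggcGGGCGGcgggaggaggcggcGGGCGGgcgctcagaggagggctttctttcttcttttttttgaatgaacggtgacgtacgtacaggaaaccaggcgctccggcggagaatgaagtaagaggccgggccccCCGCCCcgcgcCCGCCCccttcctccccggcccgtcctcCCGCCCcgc
Mcl1: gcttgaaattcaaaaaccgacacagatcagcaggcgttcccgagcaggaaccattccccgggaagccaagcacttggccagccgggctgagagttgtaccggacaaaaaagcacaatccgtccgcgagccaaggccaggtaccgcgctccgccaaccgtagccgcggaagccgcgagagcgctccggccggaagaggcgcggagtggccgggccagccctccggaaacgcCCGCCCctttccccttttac

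A GC box was found in 32.7% of all 32851 windows of this length. The windows of Bcl2 and Mcl1 were 74.8% and 64.4% G or C, against a median of 52.4% over all windows.

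Bak1, the effector that resides on the mitochondrial membrane, was at 8.86, 8.84 and 8.86 in the controls. On the JG-98 arrays it was at 8.84, 8.97 and 8.93. JG-98 replicate 1 was level with the lowest control, while the other JG-98 arrays were above all controls. The difference of 0.060 ± 0.065 (SE, n = 3 per group) had a 95% interval of -0.096 to 0.22 (limma adjusted p = 0.87). Leaving out JG-98 replicate 1 gave 0.095, and leaving out JG-98 replicate 2 gave 0.032.

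Bmf, a BH3-only protein held at the cytoskeleton until the cell is stressed, was the death member with the largest difference. Its control values were 5.78, 5.66 and 5.54, and its JG-98 values were 5.39, 5.23 and 5.36. Every JG-98 array was below every control, with a wider spread within the groups (SD of 0.12 and 0.089) than for Bcl2. The difference was -0.33 ± 0.089 (SE, n = 3 per group), or 1.26-fold lower, with a 95% interval of -0.55 to -0.12. It did not pass over all probe sets (limma adjusted p = 0.41, unadjusted p = 0.0080), nor under any of the 14 other settings, where adjusted p-values were 0.13 to 0.79. Its size ran from -0.39 without control replicate 3 to -0.27 without control replicate 1. A larger difference in either direction was seen for 3.75% of probe sets.

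Bcl2l11 encodes Bim, which can bind all survival proteins of the family. It was at 8.04, 8.05 and 7.95 in the controls and at 7.89, 8.03 and 7.90 with JG-98. JG-98 replicate 2 lay among the controls and the other JG-98 arrays below them. The difference of -0.076 ± 0.072 (SE, n = 3 per group; 95% interval -0.25 to 0.096) did not pass (limma adjusted p = 0.83), and was -0.12 when JG-98 replicate 2 was left out. The probe set does not separate the splice forms of Bim.

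The groups of the remaining BH3-only genes overlapped. Bid, the link from death receptors to mitochondria, was at 8.29, 8.19 and 8.25 in the controls and at 8.27, 8.25 and 8.25 with JG-98. Its difference was 0.013 ± 0.062 (SE), with a 95% interval of -0.14 to 0.16. Pmaip1, which encodes the Mcl1-binding protein Noxa, was at 5.84, 5.79 and 5.77 in the controls and at 5.88, 5.68 and 5.87 with JG-98. JG-98 replicates 1 and 3 were above the controls and replicate 2 below them. The difference was 0.0088 ± 0.079 (SE), with a 95% interval of -0.18 to 0.20.

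Bbc3 encodes Puma, a p53 target that binds every survival protein. It was at 4.51, 4.35 and 4.50 in the controls and at 4.70, 4.35 and 4.33 with JG-98. The JG-98 arrays straddled the controls, with replicate 1 highest of all 6 and replicate 3 lowest. These values lie close to the array medians, where signal is hard to tell from background. The difference was 0.0058 ± 0.12 (SE), with a 95% interval of -0.28 to 0.29. For Bid, Pmaip1 and Bbc3 the sign of the difference turned after median centring of the arrays. The limma adjusted p-values of these 3 genes were 0.98, 0.99 and 1.00.

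Of the 9 members, the 95% intervals of 5 lay inside a log2 difference of 0.25 in either direction, which is 1.19-fold. These were Bcl2l1, Bak1, Bcl2l11, Bid and Pmaip1. For them, a larger difference than that lies outside the interval, whereas the interval of Bbc3 is wider.

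**Figure D2:**
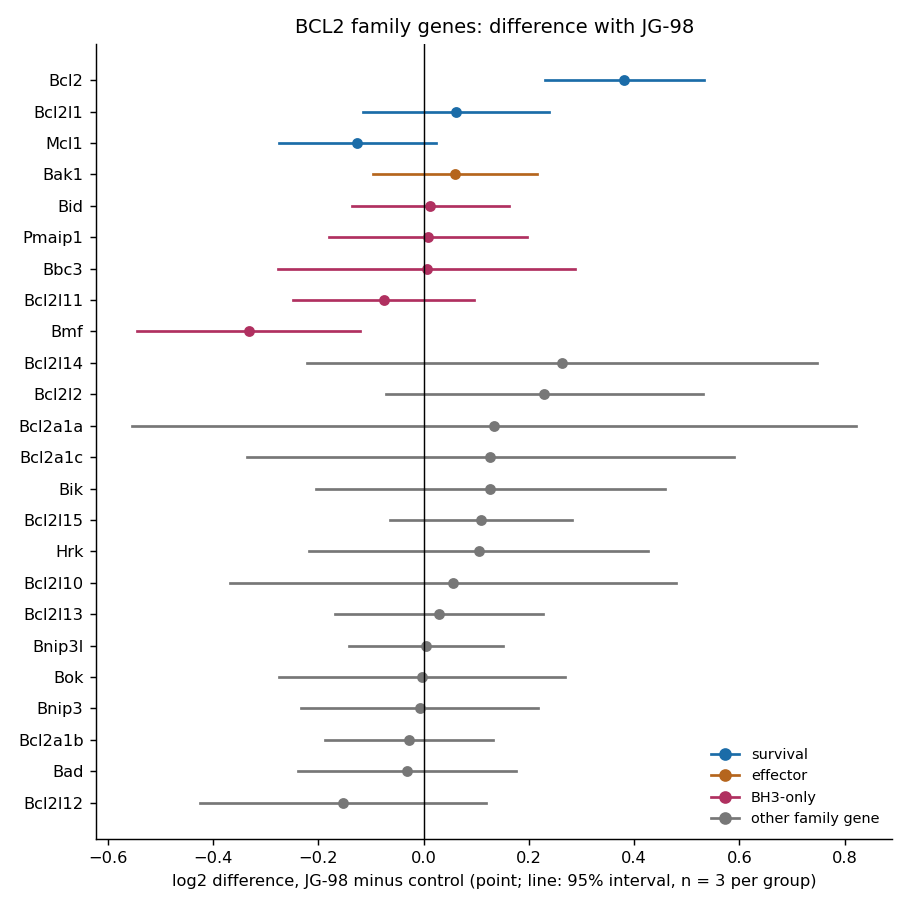
log2 difference, JG-98 minus control (x axis), with its 95% interval (n = 3 per group), for the 9 measured members by role and 15 further genes of the BCL2 family. The intervals of Bcl2 (0.23 to 0.53) and Bmf (-0.55 to -0.12) do not reach 0, and all others do.

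Among the BH3-only genes, the promoters of Bmf, which differed most, and Bcl2l11, which holds a forkhead element, are shown in the same way. Here capitals mark GC boxes and the forkhead letters GTAAACA, bound by FOXO factors. The Bmf window of the most upstream of 3 starts lies at chr2:118549687-118549936 on the minus strand and holds none of the letters searched. The Bcl2l11 window of the upstream of its starts lies at chr2:128125788-128126037 on the plus strand. It holds the forkhead letters, beginning 227 bases before the start, and 3 GC boxes.
Bmf: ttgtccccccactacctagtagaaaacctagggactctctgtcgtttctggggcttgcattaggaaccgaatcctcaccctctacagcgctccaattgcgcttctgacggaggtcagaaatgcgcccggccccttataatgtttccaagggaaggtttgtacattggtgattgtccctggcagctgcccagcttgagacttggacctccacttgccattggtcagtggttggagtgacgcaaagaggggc
Bcl2l11: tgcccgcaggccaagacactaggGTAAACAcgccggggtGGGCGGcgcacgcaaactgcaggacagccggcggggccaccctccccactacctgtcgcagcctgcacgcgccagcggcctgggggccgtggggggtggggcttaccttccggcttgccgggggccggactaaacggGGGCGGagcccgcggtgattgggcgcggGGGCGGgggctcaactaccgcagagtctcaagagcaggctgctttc

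Promoter windows were searched for 8 of the 9 members, 15 windows in all. Pmaip1 was left out of this search, so the counts below say nothing of its promoter. On both strands, 6 sets of letters were searched, with no overlap between the matches of different sets in the windows printed. The amino acid response element TGATGNAA, bound by ATF4 and CHOP, was in 0 of these 15 windows and in 3.45% of all windows. The heat shock element core GAANNTTC was also in 0 of the 15, and in 6.69% of all windows. The cyclic AMP response element TGACGTCA was in 0 of the 15, and in 1.55% of all. The forkhead letters were in 2 of the 8, Bcl2l11 and Bbc3, in 2 of their 15 windows, against 3.17% of all windows. The E-box CACGTG was in 1 of the 15, a window of Bbc3, and in 6.02% of all. The GC box was in 8 of the 15, which belong to 5 members. A match describes letters only, and a lack of matches covers only these windows.

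The survival and death members were then set against each other, by averaging each array's deviation from the control mean over the genes of each side. For the 3 survival genes the mean was 0.043, -0.032 and -0.011 on the control arrays. On the JG-98 arrays it was 0.12, 0.079 and 0.12. For the 6 death genes it was 0.049, -0.023 and -0.026 in the controls and -0.0071, -0.088 and -0.066 with JG-98. The survival mean was thus above every control on all 3 JG-98 arrays, while for death genes 1 of the 3 JG-98 arrays lay among the controls.

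The difference of survival less death was 0.13, 0.17 and 0.18 on the JG-98 arrays, with a mean of 0.16 ± 0.028 (SD, n = 3). On the control arrays it was -0.0058, -0.0092 and 0.015, with an SD of 0.013 (n = 3). The gap between the groups was carried by Bcl2 and Bmf. Without them, in an alternative added after the values were seen, the survival mean was -0.032 and the death mean 0.0023, so that survival less death was -0.034. On the single JG-98 arrays that remainder was -0.044, -0.039 and -0.020, and on the controls 0.014, -0.019 and 0.0054. All 3 JG-98 arrays were thus below all controls, although JG-98 replicate 3 (-0.0203) lay only just under control replicate 2 (-0.0195). No p is given for these means, because the members were chosen with results of these data known.

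**Figure D3:**
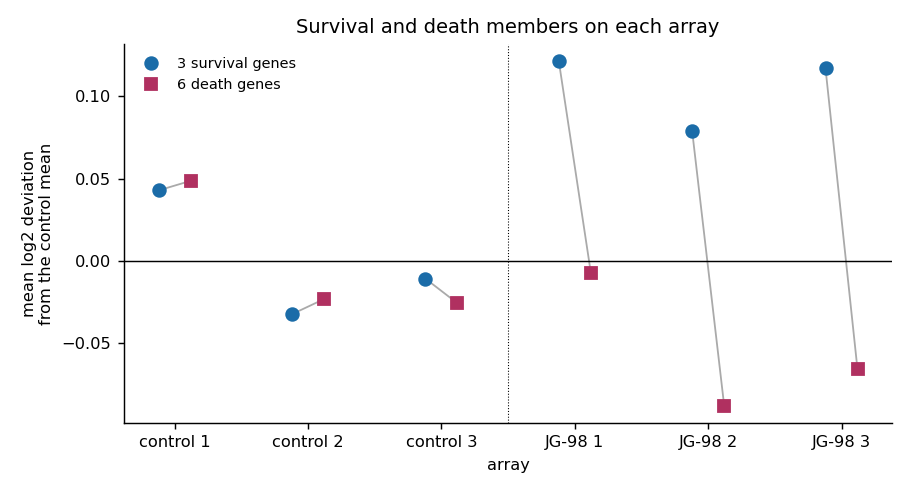
Mean log2 deviation from the control mean (y axis) of the 3 survival genes (circles) and the 6 measured death genes (squares) on each array. On the control arrays the pairs lie within 0.015 of each other, and on the JG-98 arrays the survival mean is 0.13 to 0.18 above the death mean.

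Further genes of the family were read from the same fit. Of 16 listed, 15 were measured, and 0 passed limma at an adjusted p under 0.05. At an unadjusted p under 0.05 there were 0 of 15, where 8.32% of all probe sets passed. Their median difference was 0.056, with 10 positive and 5 negative, where 50.3% of all probe sets were positive. Among the positive, Bcl2l15, Bcl2l14, Hrk and Bcl2l10 had control means of 1.80 to 2.83. These lie below the array medians, where signal is hard to tell from background. For Bik, Hrk and Bcl2l10, JG-98 replicate 3 was the highest of all 6 arrays (5.41, 3.07 and 3.27). Their other JG-98 values lay among or below the controls. The groups of all 15 overlapped, where 7.12% of all probe sets lay wholly above and 8.44% wholly below. Some 95% intervals were wide, such as -0.22 to 0.75 for Bcl2l14 and -0.55 to 0.82 for Bcl2a1a. A difference as large as that of Bcl2 lies inside both. The survival gene Bcl2l2 (Bcl-w) was between 5.82 and 6.12 in the controls and between 5.99 and 6.38 with JG-98, with overlapping groups. Its difference was 0.23 ± 0.13 (SE, n = 3 per group; 95% interval -0.072 to 0.53; limma adjusted p = 0.70), with 0.14 when JG-98 replicate 3 was left out, 0.15 when control replicate 1 was, and 0.34 when JG-98 replicate 2 was. Bcl2l15, at 1.80 in the control mean, differed by 0.11 ± 0.072 (SE, n = 3 per group). The Bcl2a1 genes are near-identical copies of a survival gene of myeloid cells, so their probes may share transcripts. They are named here outside the naming rule, and differed by 0.13 (Bcl2a1a), -0.028 (Bcl2a1b) and 0.13 (Bcl2a1c). With Bcl2a1a the controls alone had an SD of 0.45, against 0.042 for Bcl2a1b. The values of Bcl2a1a were 6.16, 6.22 and 5.41 in the controls and 6.32, 6.31 and 5.57 with JG-98. Replicate 3 was thus the lowest in each group, and the interval of Bcl2a1a takes no account of replicate number.

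Downstream of the mitochondrion, 14 of 16 listed caspase and death machinery genes were analysed. None passed limma after adjustment. At an unadjusted p under 0.05, 2 of 14 were higher and 1 lower with JG-98, where 3.84% of all probe sets were higher and 4.48% lower. The median was 0.031. Casp2, an initiator caspase that can cut Bid, was at 8.05, 8.12 and 8.05 in the controls and at 7.69, 7.59 and 7.63 with JG-98. All treated arrays were far below the controls. The difference of -0.44 ± 0.065 (SE, n = 3 per group; 95% interval -0.59 to -0.28) missed the threshold (limma adjusted p = 0.19), and passed with an intensity trend (adjusted p = 0.0058) and without probe sets under the 50th percentile (adjusted p = 0.032).

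Cycs, the gene of cytochrome c, was at 2.55, 2.95 and 2.82 in the controls and at 3.44, 3.21 and 3.07 with JG-98. Endog, a mitochondrial nuclease, was at 4.52, 4.28 and 4.36 against 4.71, 4.63 and 4.78. Both sets of JG-98 values lay above the controls, by 0.47 ± 0.14 and 0.32 ± 0.087 (SE, n = 3 per group). The Endog values, like those of Bbc3, lie close to the array medians and those of Cycs lie below them, where signal is hard to tell from background. Cycs has many processed copies in the genome, and its low values may not reflect the transcript alone. Neither passed (limma adjusted p = 0.44 and 0.42).

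Some inhibitors of apoptosis proteins block caspases or signal from death receptors. Of the 8 measured members of this list, 6 had negative differences, where 49.7% of all probe sets did. The median was -0.21. None passed limma after adjustment, and 3 of 8 were lower at an unadjusted p under 0.05, where 4.48% of all probe sets were. The difference of this list from other genes was not tested. Birc5 (survivin), which also serves chromosome segregation, was at 7.27, 7.34 and 7.11 in the controls and at 6.94, 7.02 and 6.82 with JG-98. The groups did not overlap, and the difference was -0.31 ± 0.090 (SE, n = 3 per group; limma adjusted p = 0.43). Naip5, a sensor of bacterial flagellin, and Birc3 (cIAP2) differed by -0.24 ± 0.096 and -0.18 ± 0.075 (SE, n = 3 per group), at unadjusted p-values of 0.045 and 0.049. Without control replicate 2, Naip5 differed by -0.15. Naip genes are close relatives whose transcripts can share probes. The JG-98 values lay wholly below the controls for 4 of the 8, where 8.44% of all probe sets did. Xiap and Birc6, named here outside the naming rule, differed by -0.026 ± 0.075 and 0.074 ± 0.070 (SE, n = 3 per group), with overlapping groups.

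In the death receptor branch that feeds into Bid, 10 of 11 genes were measured and none passed after adjustment in limma, with a median of -0.0052. Fas, a death receptor, was the 1 of 10 at an unadjusted p under 0.05, where 8.32% of all probe sets were. It was at 5.96, 5.75 and 5.84 in the controls and at 5.60, 5.74 and 5.30 with JG-98. JG-98 replicate 2 lay just under the lowest control, and replicate 3 far below it. The difference was -0.30 ± 0.13 (SE, n = 3 per group, limma adjusted p = 0.60), and -0.18 without JG-98 replicate 3. The unadjusted limma p of Fas was 0.0499, and it was under 0.05 in 6 of the 14 other settings. Tnfrsf10b, named here outside the naming rule, had the largest difference of the list, at 0.32 ± 0.14 (SE, n = 3 per group). Its groups overlapped, and its unadjusted limma p was 0.055. In this list 5 differences were positive and 5 negative.

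The last list held 18 regulators of the members' transcription or stability, of which 17 were analysed. None passed limma after adjustment, and the median was -0.058. At an unadjusted p under 0.05, 2 of 17 were higher and 2 lower, where 8.32% of all probe sets were at either. Ddit3 encodes CHOP, known to lower Bcl2 and raise Bcl2l11 in other cells. It was at 5.75, 6.07 and 5.92 in the controls and at 6.72, 7.06 and 6.47 with JG-98, a difference of 0.84 ± 0.16 (SE, n = 3 per group; limma adjusted p = 0.28). Its partner Atf4 was at 7.91, 7.86 and 8.08 against 8.49, 8.34 and 8.33, a difference of 0.44 ± 0.088 (SE, n = 3 per group; limma adjusted p = 0.29). Both genes had every JG-98 value above every control, and both passed with an intensity trend (adjusted p = 0.032 and 0.025).

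Foxo3, a forkhead factor known to induce Bcl2l11 and Bbc3, was at 7.77, 7.90 and 7.66 in the controls and at 7.57, 7.59 and 7.54 with JG-98. Stat5a, a cytokine-activated factor known to induce survival genes of the family, was at 6.93, 7.03 and 7.07 against 6.77, 6.77 and 6.84. Both were lower on every JG-98 array, by -0.21 ± 0.081 and -0.21 ± 0.070 (SE, n = 3 per group). Neither passed (limma adjusted p = 0.57 and 0.50).

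**Figure D4:**
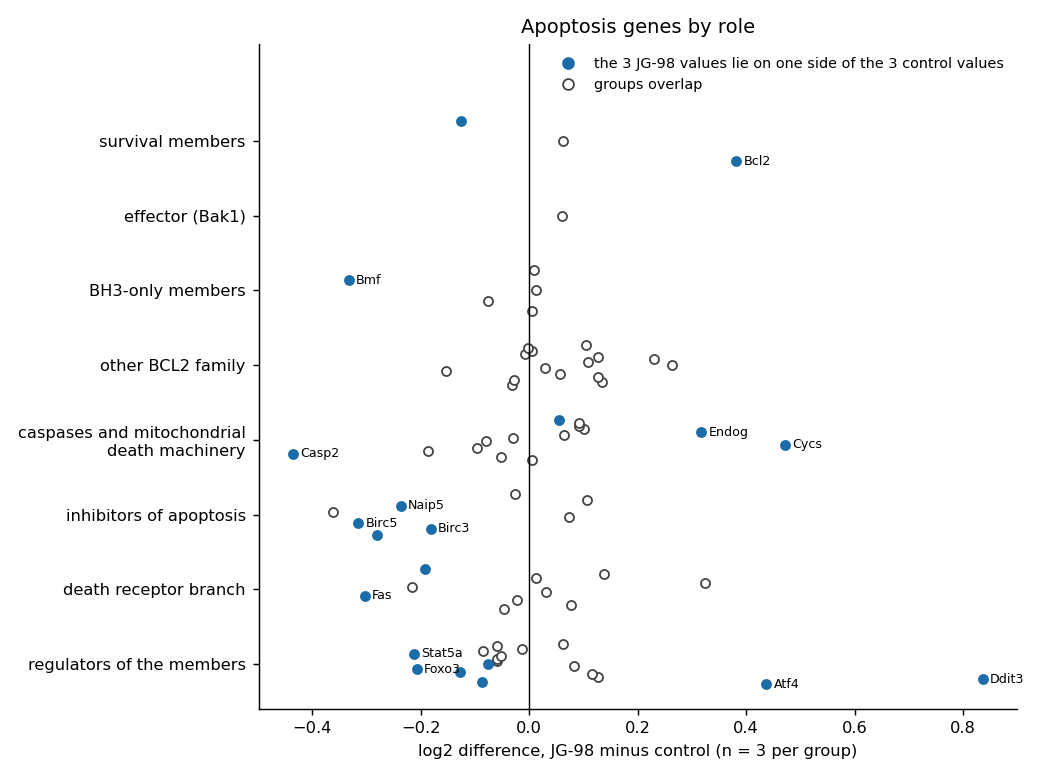
log2 difference, JG-98 minus control (x axis, n = 3 per group), of each measured gene, in rows by role, with filled points where the 3 JG-98 values lie on one side of the 3 control values. Bcl2 at 0.38 and Bmf at -0.33 stand at the edges of their rows, and 6 of 8 inhibitors of apoptosis lie left of 0.

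Since Bcl2 had the smallest p of the members, the 5 named genes with the most similar pattern over the 6 arrays were found by Pearson correlation. They were Adpgk (r = 1.00), an ADP-dependent glucokinase, Itpr3 (r = 0.998), a calcium channel of the endoplasmic reticulum, and Hip1 (r = 0.996). Agap1 and Rnaseh1 followed, both at r = 0.995. Such values describe 6 arrays in 2 groups, and these genes are the highest picked from 23185 probe sets with a symbol. The differences of the 5 genes with JG-98 ran from 0.14 for Rnaseh1 to 0.29 for Itpr3, all smaller than that of Bcl2.

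The results for Bcl2, Mcl1 and Bmf under each setting tried are compared in the plot of settings.

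**Figure D5:**
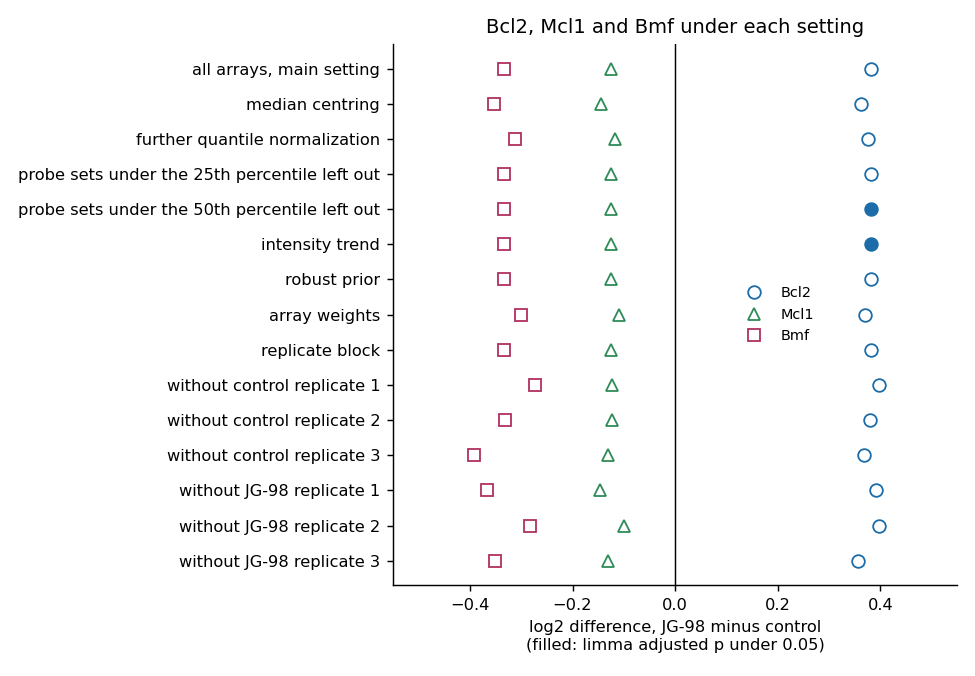
log2 difference, JG-98 minus control (x axis), of Bcl2 (circles), Mcl1 (triangles) and Bmf (squares) with all arrays and under each other setting (rows), filled where the limma adjusted p was under 0.05. The direction of each gene held in all 14 other settings, and Bcl2 alone passed, in 2 of them. The filters, variance priors and replicate block leave the difference itself unchanged. As the groups of these genes do not overlap, array weights and leaving out an array cannot turn the sign.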

How the data were processed

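Arrays of 3 control and 3 JG-98 samples were analysed. Each array has a column of log2 values deposited by the authors. The submitters' processing notes name RMA, affy and R 2.15.1, with no roles. The genome build of the probe sets is not given in the sources here. RMA, as generally defined, normalizes arrays against each other and compresses differences between dim probe sets. No detection call was used, and array number limits precision.

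Symbols came from the platform annotation (1 symbol for 23185 of 25206 probe sets, none for 2021), updated by Entrez number in a RefSeq table of assembly GRCm38.p6. The two-sided test was limma's lmFit with eBayes (limma 3.58.1, R 4.3.3), run on all probe sets without covariates, with Benjamini-Hochberg adjustment and a threshold of 0.05. The 95% intervals are those of the moderated fit. The same fit, tested on simulated data of 25206 probe sets for this comparison, recovered 19.6% of probe sets changed by 0.5 and 77.4% of those changed by 1 on the log2 scale. No label ties replicates to different mice or cultures. The p-values therefore reflect variation among these samples alone, and that may be technical.

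Genes were named by rule: all members, and in each other list up to 4 genes with an unadjusted p under 0.05, or the 2 smallest. The members and lists were chosen with earlier results of these data known. Other settings were array scaling, filters on dim probe sets, variance priors, array weights (statmod 1.5.0), the replicate number as a block and leaving out each array. Promoters were searched in Python 3.11.15. Bax and some other listed genes were not analysed here.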

Additional observations from a re-analysis of the deposited data

How the results depend on the processing

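The 10 probe sets called with all arrays became 90 without probe sets under the 50th percentile, 254 with an intensity trend and 25 with array weights. Leaving out each array in turn gave 0 to 5 calls, and a fit with the replicate block called 0 in limma (smallest adjusted p = 0.22, and 1855 at an unadjusted p under 0.05). Of the members, 1 was called under the filter and 1 with the trend, Bcl2 each time, and 0 in every other setting. The replicate numbers were not taken as pairs, since the deviations of same-numbered arrays correlated at 0.095, -0.13 and 0.10, and 2 of 6 arrays correlated best with their own number. With the block, Bcl2 differed by 0.38 (limma adjusted p = 0.67). Leaving Bcl2 and Bmf out of the means, chosen after seeing the data, moved the survival mean to -0.032, the death mean to 0.0023 and their difference to -0.034. With Bcl2 and Bmf kept, survival less death stayed between 0.14 and 0.17 in the planned settings. Median centring, the filters, the variance priors and the block cannot change it, and it was 0.16 in each of them. Bcl2, Bcl2l1, Mcl1, Bak1, Bcl2l11 and Bmf kept their direction in all 14 settings. The filters, variance priors and block leave a gene's difference unchanged, so its direction could not turn there. For Bcl2, Mcl1 and Bmf, whose groups do not overlap, array weights and leaving out an array could not turn it either. The sign turned for Bid after median centring (-0.0066) and ranged from -0.012 to 0.034 when arrays were left out. It turned for Pmaip1 after median centring (-0.011), and ranged from -0.027 to 0.072 when arrays were left out. For Bbc3 it turned after median centring (-0.014) and further quantile normalization (-0.013), and ranged from -0.11 to 0.072 when arrays were left out. The cause of these moves was not tested.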
